A study of Mus musculus with 10 samples.

Results

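The activating receptors of natural killer cells (NKC) and the adaptors that carry their signals were followed here in cells with and without the transcription factor Runx3. The group held 9 genes, chosen by symbol for what they encode: the receptors Ncr1, Fcgr3, Cd226, Crtam and Pilrb1, the adaptors Fcer1g, Tyrobp and Hcst, and the kinase Syk. They were read by 12 of the 45101 probe sets of an Affymetrix mouse array, 4 of them for Syk and 1 for each other gene, and stood beside 18194 genes with a probe set of their own. The brightest probe set stood for the gene, and testing was limited to genes whose brightest probe set was at log2 5 or more in 2 or more arrays. This left 9391 genes and 8 of the 9 members, all except Cd226.

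NKC came from spleens of ICR mice aged 6 weeks, 5 wild type (WT, Runx3 +/+) and 5 knockout (KO, Runx3 -/-), and each of the 10 arrays held the RNA of 1 mouse. After negative selection and, according to the methods, a sort for the surface marker DX5, cells were kept in culture for 7 days. The medium held human recombinant IL-2 at 1000 u/ml in 3 WT and 3 KO samples, and IL-15 of the mouse in 2 WT and 2 KO samples. The labels give sex only as male or female, and the methods describe the cells at the end of culture as almost all positive for NKp46, the product of Ncr1. The comparisons asked how loss of Runx3 changed these transcripts in each cytokine, and how the cytokines differed within a genotype.

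Activating NKC receptors have short cytoplasmic tails and signal through small transmembrane partners. FcRγ (Fcer1g) and DAP12 (Tyrobp) carry immunoreceptor tyrosine-based activation motifs (ITAM), which recruit the kinases Syk and Zap70 once phosphorylated, whereas DAP10 (Hcst) carries a motif that binds phosphoinositide 3-kinase and serves NKG2D. NKp46 and the IgG receptor CD16 (Fcgr3) use FcRγ, and Pilrb1 uses DAP12. CD226 and Crtam instead bind ligands of the nectin family through tails of their own.

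Values are log2 GC-RMA signals, used as deposited. For every probe set the WT and the KO array of the same number had the same sum within a cytokine, to within 0.00014 in IL-2 and 0.00013 in IL-15, so differences between numbered pairs had been removed before deposit. WT and KO arrays of a pair therefore mirror each other, the SD of a WT group equals that of its KO group, and replicate information lies in the KO minus WT differences, from 3 pairs for IL-2 and from 2 for IL-15. Array medians lay between 3.2 and 3.37. Of 10 NKC markers with a probe set, 9 had a mean of at least log2 5 in each of the 4 groups, and Itga2, which encodes the DX5 antigen, was below it in all of them. The Runx3 transcript averaged 11.65 (WT) and 11.07 (KO) in IL-2, and 12.48 and 11.38 in IL-15. Whether its probes lie in the deleted part is not given in the sources used here, so these values do not check the genotype.

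The transcripts of Ncr1, Syk and Pilrb1 differed between KO and WT NKC in IL-2 beyond the test's threshold. The 250 bases before their transcription start are shown because RUNX proteins bind the motif given in the methods, TGTGGT or TGTGGC or TGCGGT or TGCGGC, and the capitals mark these letters (ACCACA or GCCACA or ACCGCA or GCCGCA where the motif lies on the opposite strand). Sequences are from RefSeq on build GRCm38.p6, for Ncr1 chr7:4337465-4337714 on the plus strand, for Syk chr13:52583187-52583436 on the plus strand and for Pilrb1 chr5:137858050-137858299 on the minus strand, each written 5′ to 3′ along its gene.
Ncr1: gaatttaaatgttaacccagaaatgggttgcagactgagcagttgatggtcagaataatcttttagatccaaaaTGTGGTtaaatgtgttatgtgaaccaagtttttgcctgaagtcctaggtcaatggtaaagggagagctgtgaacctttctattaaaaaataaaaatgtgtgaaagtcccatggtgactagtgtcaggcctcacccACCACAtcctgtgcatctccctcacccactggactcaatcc
Syk: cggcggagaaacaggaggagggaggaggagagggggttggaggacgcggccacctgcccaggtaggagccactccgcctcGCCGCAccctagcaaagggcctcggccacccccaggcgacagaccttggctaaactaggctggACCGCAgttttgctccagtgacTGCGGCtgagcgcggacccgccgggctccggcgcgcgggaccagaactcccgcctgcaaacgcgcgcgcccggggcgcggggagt
Pilrb1: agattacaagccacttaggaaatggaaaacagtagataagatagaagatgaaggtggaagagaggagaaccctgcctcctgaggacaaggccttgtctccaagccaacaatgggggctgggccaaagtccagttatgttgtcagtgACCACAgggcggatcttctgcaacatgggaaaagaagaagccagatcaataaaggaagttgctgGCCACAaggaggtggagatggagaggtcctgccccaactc
The Ncr1 window held TGTGGT on the gene's strand at -176 to -171 and on the opposite strand at -41 to -36, counted from the start site. The Syk window held 3 matches, TGCGGC on the opposite strand at -170 to -165, TGCGGT on the opposite strand at -107 to -102 and TGCGGC on the gene's strand at -85 to -80. The Pilrb1 window held TGTGGT at -104 to -99 and TGTGGC at -40 to -35, both on the opposite strand. Of 32851 mouse promoters of this length, 38% held at least 1 of the 4 motifs, 8.92% at least 2 and 1.62% at least 3. The matches are described here as letters and not as binding sites. Among the other members with an entry, Fcgr3 held 1 match at each of its 2 starts, the second start of Syk held 0, and Fcer1g and Hcst held 0. Tyrobp, Crtam and Cd226 had no entry.

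Ncr1 (1422089_at, chromosome 7) encodes NKp46, a receptor found on nearly all mouse NKC. In IL-2 its log2 level was 9.48, 10.11 and 9.15 in the WT arrays 1 to 3 and 11.80, 11.16 and 12.12 in the KO arrays. In IL-15 it was 11.80 and 12.34 in WT and 12.36 and 11.82 in KO. The WT arrays in IL-2 were thus the low ones, below each of the other 7 arrays, and the remaining 3 groups overlapped one another. In IL-2 Ncr1 rose in KO NKC by 2.11 ± 0.98 (log2, SD, 3 pairs), a 4.33-fold difference, with all 3 pairs in this direction (95% interval 1.12 to 3.10; adjusted p = 0.017). In IL-15 the difference was 0.01 ± 0.76 (SD, 2 pairs), with 1 pair on each side of 0 (95% interval -1.20 to 1.23; adjusted p = 0.996). The difference between these KO effects was -2.10 (95% interval -3.67 to -0.53) and missed the threshold over all genes (adjusted p = 0.326). The call in IL-2 was lost without pair 1 (2.01, adjusted p = 0.102) and without pair 3 (1.69, adjusted p = 0.0568), although the sign held.

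Fcgr3 (1448620_at, chromosome 1) encodes CD16, the low-affinity IgG receptor of antibody-dependent killing. Its log2 level in IL-2 was 11.01, 10.91 and 11.26 in WT and 10.62, 10.72 and 10.37 in KO, and in IL-15 it was 12.43 and 12.25 in WT and 11.62 and 11.80 in KO. The WT arrays lay above the KO arrays in each cytokine, and the IL-15 arrays above the IL-2 arrays in each genotype, so the 4 groups did not overlap and ran from KO in IL-2 through WT in IL-2 and KO in IL-15 to WT in IL-15. The KO minus WT difference was -0.49 ± 0.36 in IL-2 (adjusted p = 0.223) and -0.63 ± 0.26 in IL-15 (adjusted p = 0.462), negative in 5 of 5 pairs and called in neither cytokine. The near paralog Fcgr4, the neighbouring gene, had a mean near log2 2 in each group.

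Pilrb1 (1422041_at, chromosome 5) encodes an activating receptor that signals through DAP12. Its log2 level in IL-2 was 11.03, 9.85 and 9.78 in WT and 5.97, 7.16 and 7.22 in KO, and in IL-15 it was 8.81 and 8.02 in WT and 6.06 and 6.86 in KO. WT in IL-2 was highest, WT in IL-15 next, and the KO arrays of both cytokines lay below all WT arrays and overlapped each other. Pilrb1 fell in KO NKC in IL-2, with a log2 difference of -3.44 ± 1.41 (SD, 3 pairs) or 10.8-fold (95% interval -4.76 to -2.11; adjusted p = 0.00937). This was the 120th deepest difference of 9391 and the only member call to hold without each pair in turn, where it ranged from -2.62 without pair 1 to -3.88 without pair 3. With no filter on low values none of the 3 member calls in IL-2 remained, with adjusted p of 0.0698 for Pilrb1, 0.0715 for Syk and 0.0881 for Ncr1. In IL-15 the difference was -1.95 ± 1.13 (SD, 2 pairs), in the same direction in 2 of 2 pairs (95% interval -3.57 to -0.33; adjusted p = 0.264). The KO effects of the cytokines differed by 1.48 (95% interval -0.61 to 3.58; adjusted p = 0.544). Pilrb1 lies between its inhibitory counterpart Pilra, whose mean was 2.79 in WT and 2.95 in KO in IL-2, and the close paralog Pilrb2, which has no probe set of its own name. Whether the probes also read Pilrb2 was not tested.

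Crtam (1449903_at, chromosome 9) encodes a receptor of activated NKC and cytotoxic T cells that binds the cell adhesion molecule Cadm1. Its log2 level in IL-2 was 5.33, 7.03 and 3.88 in WT and 7.43, 5.73 and 8.88 in KO. In IL-15 it was 5.20 and 10.24 in WT and 10.47 and 5.43 in KO. The groups overlapped throughout, and arrays of a group lay as far apart as the 2 WT arrays in IL-15. The pairs in IL-2 differed by 2.09, -1.30 and 5.00 and those in IL-15 by 5.27 and -4.80, so that neither cytokine gave a direction (1.93 ± 3.16, adjusted p = 0.498, and 0.23 ± 7.12, adjusted p = 0.99). The 95% interval in IL-2, -2.53 to 6.39, leaves room for a large difference either way.

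Cd226 (1445388_at) encodes DNAM-1, a receptor for the poliovirus receptor Pvr and for nectin-2. All 10 values lay under log2 5, between 3.81 and 4.28 in IL-2 and between 3.88 and 4.15 in IL-15. The gene did not pass the filter on low values and was not tested, and no order of the groups is read from these signals.

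**Figure D1:**
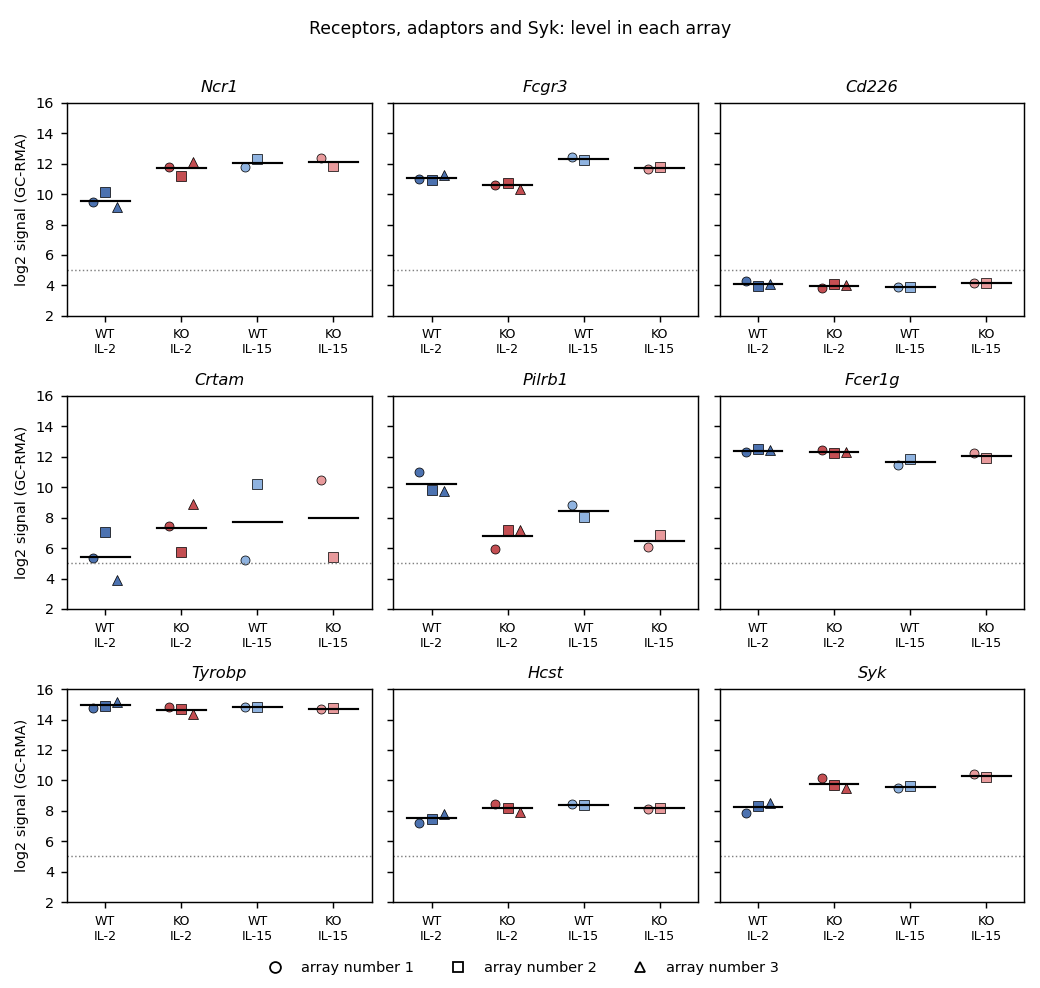
Log2 GC-RMA signal (y axis) of the 9 genes in each of the 10 arrays, by genotype and cytokine (x axis). Circles, squares and triangles are arrays 1, 2 and 3 of a group, bars are group means and the dotted line is log2 5. The WT arrays in IL-2 stand low for Ncr1 and Syk and high for Pilrb1, Tyrobp is level, Crtam scatters within groups, and Cd226 lies under the line in all arrays.

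None of the 3 adaptors was called between KO and WT NKC in either cytokine. Tyrobp (1450792_at, chromosome 7) had log2 levels of 14.76, 14.89 and 15.18 in WT and 14.82, 14.68 and 14.39 in KO in IL-2, and of 14.84 and 14.79 in WT and 14.69 and 14.74 in KO in IL-15. KO and WT overlapped in IL-2 and differed by -0.31 ± 0.44 (95% interval -0.95 to 0.32; adjusted p = 0.433), and in IL-15 by -0.10 ± 0.07 (95% interval -0.87 to 0.67; adjusted p = 0.959). Fcer1g (1418340_at, chromosome 1) had levels of 12.29, 12.51 and 12.42 in WT and 12.44, 12.23 and 12.32 in KO in IL-2, and of 11.48 and 11.87 in WT and 12.28 and 11.89 in KO in IL-15. Its arrays overlapped in IL-2, where the difference was -0.08 ± 0.21 (95% interval -0.71 to 0.55; adjusted p = 0.864). In IL-15 KO lay above WT in both pairs, by 0.79 and by 0.03 (0.41 ± 0.54, adjusted p = 0.679).

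Hcst (1419119_at) encodes DAP10 and lies next to Tyrobp on chromosome 7. Its log2 level in IL-2 was 7.22, 7.49 and 7.79 in WT and 8.45, 8.18 and 7.89 in KO, and in IL-15 it was 8.45 and 8.37 in WT and 8.12 and 8.21 in KO. The WT arrays in IL-2 were the lowest, and the other groups all fell between 7.89 and 8.45. KO lay above WT in 3 of 3 pairs in IL-2 (0.67 ± 0.56, adjusted p = 0.143) and below it in 2 of 2 pairs in IL-15 (-0.24 ± 0.12, adjusted p = 0.863), with no call in either. The difference of these effects was -0.92 (95% interval -2.0 to 0.17; adjusted p = 0.485). Its neighbour on the other side, Nfkbid, an inhibitor protein of the NF-kB family, rose in KO NKC in IL-2 by 1.28 (adjusted p = 0.0499). The other tested neighbours of members, Cfap126, Rttn, Ubash3b and Auh, were not called there, where 19.7% of all tested genes were.

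Syk, the tyrosine kinase that binds phosphorylated ITAMs, lies on chromosome 13. Its brightest probe set (1418261_at) read 7.83, 8.32 and 8.52 in WT and 10.18, 9.69 and 9.49 in KO in IL-2, and 9.47 and 9.66 in WT and 10.41 and 10.22 in KO in IL-15. KO exceeded WT without overlap in both cytokines, with WT in IL-2 lowest, KO in IL-15 highest, and KO in IL-2 and WT in IL-15 overlapping between them. Syk rose in KO NKC in IL-2 by 1.56 ± 0.71 (SD, 3 pairs), a 2.96-fold difference (95% interval 0.79 to 2.33; adjusted p = 0.0196). In IL-15 the difference was 0.75 ± 0.26 (2 of 2 pairs higher, 95% interval -0.19 to 1.70; adjusted p = 0.488), and the KO effects of the cytokines differed by -0.81 (95% interval -2.03 to 0.41; adjusted p = 0.566). The call in IL-2 was lost without pair 1 (1.17, adjusted p = 0.0891), without pair 2 (1.66, adjusted p = 0.0624) and when the gene's probe sets were averaged (0.85, adjusted p = 0.0511).

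The 4 Syk probe sets differed in brightness and in how far they followed this pattern. The second (1418262_at) had means of 7.35 in WT and 8.47 in KO in IL-2, and of 8.74 and 9.17 in IL-15. Tested as a feature of its own among 15758 probe sets, it rose in KO NKC in IL-2 by 1.12 ± 0.32 (adjusted p = 0.0386), and its KO and WT arrays did not overlap in either cytokine. The third (1457239_at) was under log2 5 in all arrays in IL-2, with means of 2.93 and 3.64, and had means of 4.74 in WT and 5.86 in KO in IL-15, a difference of 1.12 ± 0.98 (adjusted p = 0.376). The fourth (1425797_a_at) was under log2 5 in all 10 arrays, between 2.10 and 3.60, and was not tested. Both bright probe sets thus had KO above WT in each of the 5 pairs, and each of them was called in IL-2 in that fit.

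**Figure D2:**
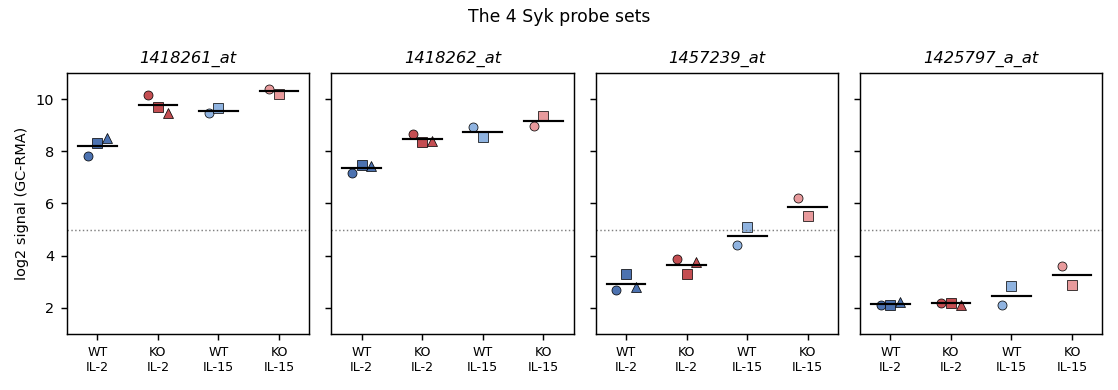
Log2 GC-RMA signal (y axis) of the 4 Syk probe sets in each array, by genotype and cytokine (x axis), with circles, squares and triangles for arrays 1, 2 and 3, bars for group means and a dotted line at log2 5. In the 2 bright probe sets WT in IL-2 is lowest, with means of 8.22 and 7.35, and KO in IL-15 highest, with means of 10.32 and 9.17, while 1457239_at passes log2 5 only in IL-15 arrays and 1425797_a_at in none.

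Over the 8 tested members, 3 were called in KO versus WT NKC in IL-2, 2 higher (Ncr1 and Syk) and 1 lower (Pilrb1), where 19.7% of all tested genes were called, 10.5% higher and 9.17% lower. The members' median difference was 0.30, against 0.11 over all tested genes. KO and WT arrays did not overlap for 5 members, higher in KO for Ncr1, Hcst and Syk and lower for Fcgr3 and Pilrb1, where 54.4% of tested genes had no overlap (31.1% higher and 23.2% lower). In IL-15, 0 of the 8 members were called by limma, where 1.3% of all tested genes were (122 genes, 0.458% higher and 0.841% lower). At an unadjusted p under 0.05 these numbers were 1, Pilrb1, and 1268. KO and WT arrays did not overlap there for 6 members, higher in KO for Fcer1g and Syk and lower for Fcgr3, Tyrobp, Hcst and Pilrb1, where 64.6% of tested genes had no overlap (31.7% higher and 32.9% lower). The members' median difference in IL-15 was -0.04, against -0.01 over all genes. For the difference of KO effects between the cytokines 0 of 9391 genes were called, and 1106 had an unadjusted p under 0.05, with Ncr1 the one member among them. An effect called in IL-2 and not in IL-15 is therefore not shown to differ between the cytokines for any member.

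**Figure D3:**
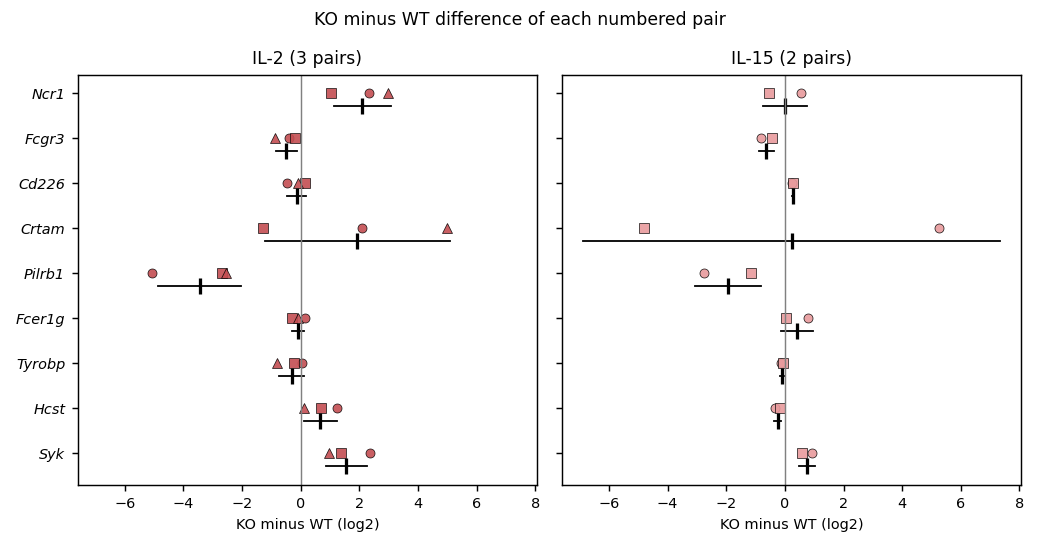
Log2 difference, KO minus WT (x axis), of each numbered pair for the 9 genes (y axis), in IL-2 (3 pairs, left) and IL-15 (2 pairs, right). Circles, squares and triangles are pairs 1, 2 and 3, and the thick tick and thin line below them give the mean and its SD over pairs. All pairs lie right of 0 for Syk and left of 0 for Fcgr3 and Pilrb1 in both cytokines, Ncr1 lies right of 0 in IL-2 and on both sides in IL-15, and the Crtam pairs spread from -4.80 to 5.27.

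Myeloid cells also express Tyrobp, Fcer1g, Fcgr3, Syk and the Pilr receptors, so markers of other cells were read in the same arrays. The log2 of the summed signal of 9 macrophage and monocyte markers was 11.17 to 11.70 in WT and 13.42 to 13.86 in KO in IL-2, and 11.78 to 12.16 in WT and 12.82 to 13.20 in KO in IL-15. The largest signal among them was that of Ctss, a lysosomal protease. Ctss rose by 2.54 ± 0.50 in IL-2 (means 11.09 and 13.64). The monocyte receptor Cd14 fell by 3.88 ± 2.92 in IL-2, close to the limit of the limma test (adjusted p = 0.0494). Its mean was 7.68 in WT and 3.79 in KO. The KO mean was under log2 5, so the size of this fall is not exact. The lysozyme gene Lyz2 had means of 5.07 (WT) and 7.97 (KO) in IL-2 and of 2.41 and 5.95 in IL-15 (adjusted p = 0.114 and 0.325), and the receptor Csf1r differed by -1.56 ± 3.31 and by 1.25 ± 3.61 (adjusted p = 0.438 and 0.839). Adgre1, C1qa, C1qb, Fcgr1 and Mpeg1 had means under log2 5 in all 4 groups, with Adgre1 the nearest to it (4.81 in WT and 4.95 in KO in IL-2). The sum of 5 B cell markers was 8.74 to 8.88 in WT and 10.89 to 11.03 in KO in IL-2 and 9.82 to 10.74 and 10.74 to 11.67 in IL-15. It rested on Ighm, which rose by 2.26 ± 0.16 in IL-2, while Cd79a, Cd79b, Ms4a1 and Pax5 were under log2 5 in each group. The sum of 8 mast cell and basophil markers ran the other way, from 12.92 to 14.74 in WT and from 10.88 to 11.63 in KO in IL-2, and from 13.83 to 14.21 and from 11.96 to 12.26 in IL-15. Mcpt8 fell in both cytokines (-6.63 ± 2.16 in IL-2 and -7.02 ± 1.75 in IL-15), Cma1 in IL-2 and Cpa3 in IL-15 (-3.03 ± 1.48). These falls, except that of Mcpt8 in IL-2, ended at KO means under log2 5, so their sizes are not exact. Fcer1a, Ms4a2, Hdc and Gata2 were under log2 5 throughout. Kit carried most of this sum in KO in IL-2 and in both genotypes in IL-15. Its means were 11.26 (WT) and 11.04 (KO) in IL-2, and 13.88 and 12.08 in IL-15. Kit was called in neither cytokine (-0.22 ± 0.74 and -1.80 ± 0.41, adjusted p = 0.677 and 0.111). Of the dendritic cell and granulocyte markers the class II genes Cd74 and H2-Aa and the protease Mmp9 rose in IL-2, from means under log2 5. Itgax (1.24 ± 3.37, adjusted p = 0.456) and Zbtb46 (-0.07 ± 0.09, adjusted p = 0.866) were not called there. Flt3, Siglech, Xcr1, S100a8, S100a9, Elane, Mpo and Csf3r were under log2 5 in each group. Of the T cell markers, 0 of 4 tested were called. These were Cd3e, Cd3d, Cd3g and Cd28, with group means from 5.43 (Cd3e, WT in IL-15) to 12.58 (Cd28, KO in IL-15). Cd3g differed by -2.13 ± 2.71 in IL-15 (adjusted p = 0.4). Cd4, Cd8a, Cd8b1 and Cd5 were under log2 5 in each group. The summed signal of the 10 NKC markers was 17.55 to 17.78 in WT and 17.38 to 17.60 in KO in IL-2, which overlapped, and 17.64 to 17.70 and 17.37 to 17.43 in IL-15, which did not. Gzma and Gzmb held the largest signals in each group, and neither was called between KO and WT. In IL-2 Prf1 fell by 1.73 ± 0.94 (adjusted p = 0.0217) and Tbx21 rose by 1.42 ± 0.67 (adjusted p = 0.026). No NKC marker was called between KO and WT in IL-15. The part of other cells in the values of the members was not tested, and in bulk RNA fewer cells of a type and less RNA per cell cannot be told apart.

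The wider pathway was read through lists of related genes, beginning with the enzymes and adaptors that act below ITAMs. Of 37 such genes 31 were tested, and in KO versus WT NKC in IL-2 6 rose and 5 fell, with a median of 0.15, where 19.7% of all tested genes were called (10.5% higher and 9.17% lower) with a median of 0.11. The same background holds for the receptor and ligand lists in this comparison. Among the largest were Vav2 (2.68 ± 0.62), which is phosphorylated below ITAM receptors, and Ubash3a (2.60 ± 0.40), a dampener of antigen receptor signals, both higher in KO. Vav3 (-1.81 ± 1.02), the ubiquitin ligase Cblb (-1.71 ± 0.87), the paracaspase Malt1 (-1.59 ± 0.86) and the kinase Tec (-1.55 ± 0.31) fell. The calls thus ran in both directions within a family, Vav2 up and Vav3 down, and included restraining as well as transmitting proteins. The remaining 5 calls, named after their values were seen, were Zap70 (1.24 ± 0.20), the other kinase of the Syk family, the scaffold Lat (1.17 ± 0.05), the phosphatases Ptpn6 (1.46 ± 0.75) and Inpp5d (1.35 ± 0.63), all higher, and the phosphoinositide 3-kinase subunit Pik3r1 (-1.21 ± 0.62). Adjusted p ran from 0.00388 (Vav2) to 0.0379 (Pik3r1) over these 11 genes. In IL-15 only Vav2 was called of the 31 (2.47 ± 0.20, adjusted p = 0.0371), with a list median of 0.06.

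Of 20 further receptors and chains that pair with FcRγ, DAP12 or DAP10, 8 were bright enough to be tested. In KO NKC in IL-2, 3 rose and 1 fell, with a median of 0.57. Cd300lb, an immunoglobulin-like receptor that binds DAP12, had means of 2.94 in WT and 6.61 in KO (3.67 ± 1.77, adjusted p = 0.0168), and since the WT mean was under log2 5 the size of this difference is not exact. Klrb1f, a lectin-like receptor of the NKR-P1 family, rose by 2.88 ± 1.24 (adjusted p = 0.0196), and Cd247, the CD3ζ chain with which NKp46 also pairs, rose by 1.40 ± 0.26 (adjusted p = 0.0128). Clec4e, a lectin receptor that uses FcRγ, fell by 1.23 ± 0.68 (adjusted p = 0.0498). In IL-15, 0 of the 8 were called, with a median of -0.08.

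Ligands and inhibitory counterparts of these receptors gave 12 genes, of which 5 were tested. Pvr, the ligand of CD226, fell in KO NKC in IL-2 (-1.01 ± 0.54, adjusted p = 0.049), and the others were not called. Cd96, which shares that ligand, differed by -0.47 ± 0.41 (adjusted p = 0.247), and Fcgr2b, the inhibitory IgG receptor, by 0.48 ± 0.85 (adjusted p = 0.4). In IL-15, 0 of the 5 were called. Cadm1, Nectin1, Nectin2 and Pilra were too dim to be tested.

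**Figure D4:**
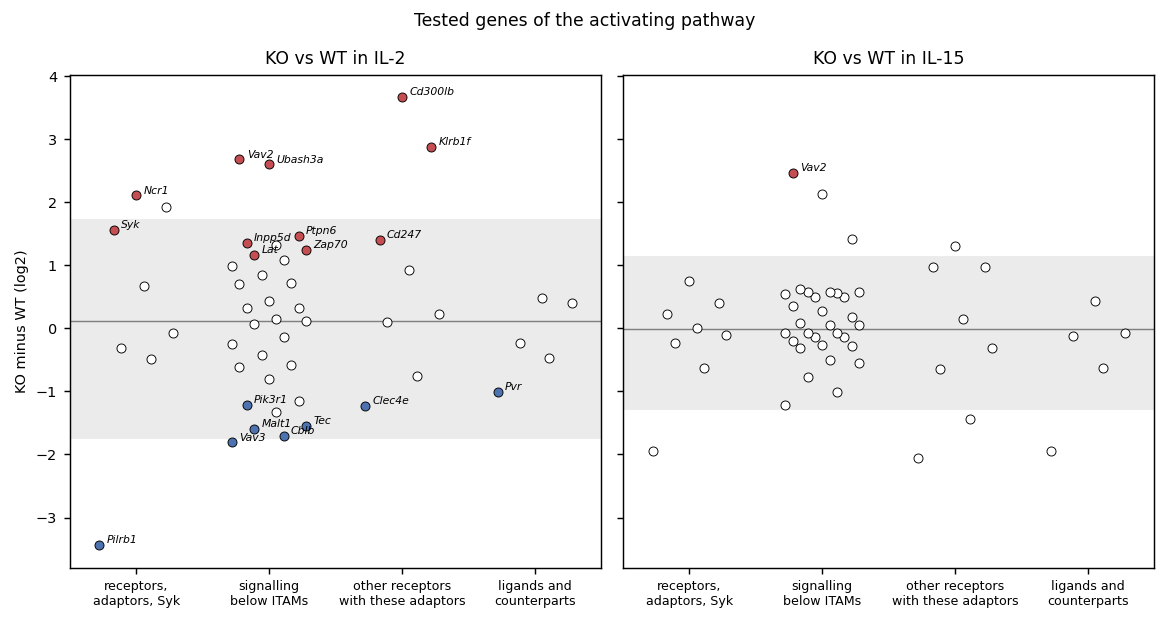
Log2 difference, KO minus WT (y axis), of the tested members and of the tested genes of the related lists (x axis), in IL-2 (left) and IL-15 (right). Each point is 1 gene, filled and named where it was called (red higher, blue lower), the grey band spans the 5th to 95th percentile of all 9391 tested genes and the line is their median. Pilrb1, Ncr1, Vav2, Vav3, Ubash3a, Cd300lb and Klrb1f lie outside the band in IL-2, as does the uncalled Crtam, and Vav2 is the one call in IL-15.

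Levels were then compared between the cytokines within a genotype. These comparisons carry a difference beyond the cytokine, since Xist, which is expressed from the inactive X chromosome, was at 4.64 to 5.37 in the IL-2 arrays and at 14.28 to 14.66 in the IL-15 arrays, and the Y-linked Eif2s3y was at 7.31 to 9.17 and at 2.34 to 2.43. Cytokine and the sex of the animals cannot be told apart here, nor where KO effects are compared between the cytokines. Between WT groups 3 of the 8 tested members were called, all higher in IL-15, where 25.9% of tested genes were called, 16.1% higher and 9.85% lower. Ncr1 rose by 2.49 (95% interval 1.38 to 3.60, 5.63-fold, adjusted p = 0.0142), Fcgr3 by 1.28 (0.59 to 1.97, 2.43-fold, adjusted p = 0.0233) and Syk by 1.34 (0.48 to 2.20, 2.53-fold, adjusted p = 0.0375). The members' median was 1.09, against 0.18 over all tested genes. Pilrb1 (-1.81, adjusted p = 0.0728), Hcst (0.91, adjusted p = 0.0787) and Fcer1g (-0.73, adjusted p = 0.112) did not pass the test. Between KO groups only Fcgr3 was called, higher in IL-15 by 1.14 (95% interval 0.44 to 1.83, 2.2-fold, adjusted p = 0.0339), where 23.3% of tested genes were called, 14% higher and 9.37% lower. Ncr1 differed there by 0.39 (-0.72 to 1.5, adjusted p = 0.571), Syk by 0.53 (-0.33 to 1.39, adjusted p = 0.321) and Pilrb1 by -0.32 (adjusted p = 0.733). The Syk probe set 1457239_at, as a feature of its own, reached log2 5 only in IL-15 arrays and so passed the filter through them. Its means in IL-2 and IL-15 were 2.93 and 4.74 in WT, both under log2 5, and 3.64 and 5.86 in KO. The differences (1.81 in WT and 2.23 in KO) are given as a description, and their test is not read as support.

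These calls were not stable to the loss of single pairs of arrays. All 3 in WT were lost without pair 1 in IL-2 and without either pair in IL-15, with adjusted p from 0.0543 (Ncr1) to 0.0706 (Syk) and from 0.0561 (Ncr1) to 0.186 (Syk) respectively, and Syk also without pair 2 in IL-2 (0.0616). The call of Fcgr3 in KO was lost without any 1 of the 5 pairs (1.03 to 1.23, adjusted p from 0.0519 to 0.192). The signs of all 4 held throughout. Because differences between pairs had been removed, these p-values are also too small by an unknown amount where pairs differed.

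**Figure D5:**
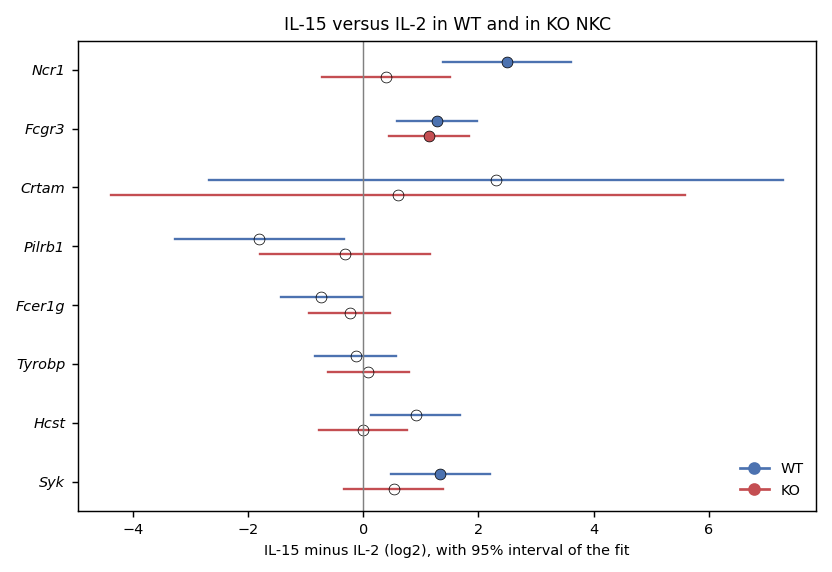
IL-15 minus IL-2 difference on the log2 scale (x axis) of the 8 tested genes (y axis) in WT (blue) and KO (red) NKC, with lines for the 95% interval of the fit and filled points for called differences. Ncr1, Fcgr3 and Syk are filled in WT, at 2.49, 1.28 and 1.34, and Fcgr3 alone in KO, at 1.14.

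Counts in the related lists are read against the share of all tested genes called, 25.9% in WT (16.1% higher) and 23.3% in KO (14% higher). Calls of the signalling genes, in both directions together, were below this share in WT and near it in KO, where the rises alone exceeded 14%. Of the 31 signalling genes 4 rose in IL-15 in WT NKC, led by Malt1 (3.56) and followed by Sos1 (2.04), Gab3 (1.95) and Lcp2 (1.48). In KO NKC 7 rose and 1 fell, with Malt1 (4.14), Pik3r1 (2.70), Sos1 (2.54), Vav3 (2.30), Gab3 (1.95) and Prkcq (1.36) the largest. Malt1, Sos1 and Gab3 were thus called in both genotypes. Of the 8 further receptors, 4 rose in WT, Cd300lb (3.59, from a mean of 2.94), Klrb1f (3.17), Klrk1 (1.83), which encodes the DAP10 partner NKG2D, and its relative Klrd1 (1.29), and 0 were called in KO. Nectin3 rose in WT from a mean of 3.93 to 6.76 and was the one call among the 5 ligands and counterparts. Its KO means were 4.34 in IL-2 and 4.81 in IL-15. Only WT in IL-15 had a mean of at least log2 5, so the call rests on that group and its size is not exact.

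The members' patterns across the 10 arrays were last set against all tested genes by Pearson's r, as a description, since the arrays share 4 groups and the removal of pair differences. The genes most like Ncr1 were Ngdn (0.980), Wdr82 (0.979) and Galnt4 (0.977), and those most like Syk were Rffl (0.996), Sgpp1 (0.996) and Cited2 (0.994). Pilrb1 came nearest to Grhpr (0.989), Gm17767 (0.985) and Anxa5 (0.979), and Fcgr3 to Sft2d2 (0.992), Parp8 (0.984) and Kiz (0.984). None of these is a member, which says little, since members were only 8 of the 9391 tested genes. For the adaptors the closest genes were Prodh (0.976), Utp15 (0.964) and Ctps (0.961) with Fcer1g, and Bhlhe40 (0.982), Usp54 (0.968) and Rhbdd1 (0.957) with Tyrobp. With Hcst they were Dnajc14 (0.998), Stk11ip (0.987) and Hhex (0.986). Crtam came nearest to Cd83 (0.948), Ccdc91 (0.936) and Tex30 (0.890). Among the members Syk ran with Ncr1 (0.873) and Hcst (0.851) and opposite to Pilrb1 (-0.960), Fcgr3 ran opposite to its partner Fcer1g (-0.834), and Tyrobp and Fcer1g, both ITAM adaptors, had an r of 0.079.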

How the data were processed

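RNA was measured on 10 arrays of cultured splenic NKC. The authors deposited 1 table of log2 signals per probe set, made by GC-RMA with Partek software, with versions not given in the sources used here. It was used without further scaling. The precision is limited by the number of arrays. Neither labels nor methods mention the removal of pair differences. Sums of same-numbered WT and KO arrays differed by at most 0.00014, whereas crossed sums differed by a median of 0.324 (IL-2) and 0.17 (IL-15), which is where the pairing comes from.

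Names came from the platform annotation (34958 probe sets had 1 symbol, 932 several and 9211 were not named there). A gene took its probe set with 1 symbol and the highest mean. Models were fitted to all tested genes and all 10 arrays with limma 3.58.1 in R 4.3.3, with the pair as a block, which left 3 residual degrees of freedom. IL-15 was compared with IL-2 through group means with the spread and degrees of freedom of that fit. A call needed a Benjamini-Hochberg adjusted p under 0.05 over 9391 genes and a 1.5-fold difference, the fold limit of the methods. The words rose and fell refer to called genes, SD is over pairs, and intervals are those of limma. The methods give a limit on p with no adjustment stated. The fit was tested on simulated data.

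All members are named with every probe set, with the called genes of each related list (the 6 largest where there are more) and the 3 genes most like each member. Members and lists were chosen with earlier results of these data known. Alternatives were no block, other filters, median centring, quantile normalization, the mean of a gene's probe sets, the methods' thresholds, and each pair left out. Promoters were the 250 bases before a RefSeq start (GRCm38.p6), searched on both strands.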

Additional observations from a re-analysis of the deposited data

Results flagged for a closer look

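Hcst, which encodes the NKG2D adaptor DAP10, was marked because every pair moved one way in IL-2 and the other way in IL-15: KO exceeded WT by 1.23, 0.69 and 0.10 in the 3 pairs in IL-2, and the differences were -0.33 and -0.16 in the 2 pairs in IL-15. The difference of the mean effects was -0.92 on the log2 scale, with a 95% interval of -2.0 to 0.17, and did not pass the test of limma (adjusted p = 0.485). Since WT and KO arrays of a pair mirror each other, all pairs on one side is the same as arrays without overlap. This held for 54.4% of tested genes in IL-2 and for 64.6% in IL-15. The share with opposite directions in the cytokines was not counted.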

How the results depend on the processing

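Genes called in KO versus WT in IL-2, in IL-15, in the difference of KO effects, and in IL-15 versus IL-2 in WT and in KO numbered 1851, 122, 0, 2433 and 2191, with 3, 0, 0, 3 and 1 members. Without the replicate block, which treats arrays of a pair as independent, they were 3803, 1321, 1157, 4512 and 4326, with 1 member in the difference (Ncr1, adjusted p = 0.036) and 6 in IL-15 versus IL-2 in WT. No filter on low values gave 842, 0, 0, 1333 and 1126, with 0 members in IL-2 (adjusted p of Ncr1 0.0881, Syk 0.0715, Pilrb1 0.0698), 1 between the cytokines in WT and 0 in KO. The filter at log2 6 gave 4 genes in the difference of KO effects. Averaging a gene's probe sets gave 27 genes in KO versus WT in IL-15 and 2 members (Fcgr3 and Syk) between the cytokines in KO. The methods' thresholds, taken as unadjusted p, gave 3391, 1269, 1106, 3842 and 3657 genes, 1 member in IL-15 (Pilrb1), 1 in the difference (Ncr1) and 6 between the cytokines in WT. With each probe set as its own feature, an alternative chosen after seeing the data, 2830, 123, 0, 4280 and 3926 were called. Quantile normalization moved the split between the cytokines from 1508 higher and 925 lower to 1253 and 1443 in WT and from 1311 and 880 to 1280 and 1378 in KO, and in KO versus WT in IL-15 from 43 and 79 to 41 and 47, and moved the median of all genes between WT groups from 0.18 to -0.05 and between KO groups from -0.08 to -0.20. The cause of these shifts was not tested.

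Leaving out 1 pair, which leaves fewer degrees of freedom and, in IL-15, a lone pair assumed to vary like the others, gave 537 to 1525 genes and 1 to 3 members in KO versus WT in IL-2, 0 to 95 genes in IL-15, 0 to 1 in the difference, 387 to 2247 genes and 0 to 3 members between the cytokines in WT, and 134 to 1863 genes and 0 members in KO. Signs turned only in differences that were not called. KO minus WT in IL-15 ranged from -0.53 (without pair 1 in IL-15) to 0.55 for Ncr1 and from -4.80 (same pair) to 5.27 for Crtam, and in IL-2 from -0.19 to 0.02 (without pair 2 in IL-2) for Fcer1g. The difference of KO effects ranged from -0.34 to 0.04 for Fcgr3 (0.01 without pair 2 in IL-2, 0.04 without pair 1 in IL-15), from -0.02 (without pair 3 in IL-2) to 0.41 for Tyrobp and from -6.73 to 3.33 (without pair 2 in IL-15) for Crtam. IL-15 minus IL-2 in WT ranged from -0.21 (without pair 2 in IL-15) to 4.82 for Crtam. In KO it ranged from -0.04 (without pair 3 in IL-2) to 0.18 for Tyrobp, from -0.15 to 0.13 for Hcst (0.13 without pair 1 in IL-2, 0.04 without pair 1 in IL-15), from -1.91 (without pair 1 in IL-15) to 3.12 for Crtam (-0.20 without pair 2 in IL-2) and from -0.73 to 0.08 (without pair 1 in IL-15) for Pilrb1. Median centring turned Hcst between KO groups to 0.08. Of the members' differences recomputed under an alternative, 428 kept their sign and their call or lack of one, whatever their size. The sign turned in 15, while 26 lost a call and 11 gained one.

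Few arrays and the removal of pair differences limit what can be seen. In IL-15, with 2 pairs, the 95% interval of Syk spans -0.19 to 1.70, and Cd226 and 1 Syk probe set were too dim for a comparison.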
